A study of Homo sapiens with 4 samples.

Results

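The mitotic kinesins are motor proteins that build the spindle, move chromosomes and set up the site where a dividing cell is cut. All 10 genes described here were found as rows of the deposited expression table by their symbols KIF11, KIF14, KIF15, KIF18A, KIF18B, KIF20A, KIF20B, KIF23, KIF2C and KIF4A, out of 40205 rows. Each stood lower in the SRSF1 knockdown library than in the control library of its cell line, in both lines. In U87MG cells the knockdown level was 0.205 to 0.444 times the control level, and in U251 cells 0.528 to 0.799 times.

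The study compared 4 poly(A) RNA libraries of U87MG and U251, established human glioblastoma cell lines, read paired-end. The knockdown libraries (KD) came from cells with lentiviral sh-SRSF1, a hairpin against the splicing factor SRSF1, and the control libraries (titled WT) from cells with lentiviral sh-NC, so the control cells also carry a virus and a hairpin. All 4 cultures were infected at a multiplicity of infection of 20, selected with puromycin for 1 week and are stable lines. There was 1 library for each line and arm: U87MG KD, U87MG WT, U251 KD and U251 WT. A ratio within a line therefore has no replicate check, and the knockdown is replicated only across the 2 lines. SRSF1 itself stood at 14.6 RPKM in U87MG KD against 88.3 RPKM in U87MG WT, and at 15.8 RPKM in U251 KD against 109 RPKM in U251 WT. RPKM are reads scaled to gene length and library size. The libraries held 25099799 to 27953878 reads, and each member rested on at least 135 reads in each library. VIM stood at 1065 to 1675 RPKM and CD44 at 124 to 184 RPKM over the 4 libraries, while the glial markers GFAP and S100B stayed at or below 1.47 RPKM. OLIG2, of the oligodendrocyte lineage, stood at 2.46 RPKM in U87MG KD against 0.936 RPKM in U87MG WT, and at 0.0263 RPKM in U251 KD against 0.0146 RPKM in U251 WT. SOX2 and NES stood at 1.79 RPKM or less in both U87MG libraries, against 47.9 to 83.7 RPKM in both U251 libraries. PTPRC and CD14, of blood cells, and EPCAM, of epithelia, stayed at or below 0.620 RPKM, CD3E was listed at 0, and KRT18 reached 22.4 RPKM in U251 WT.

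Kinesins couple the splitting of ATP to steps along microtubules, or in some families to the loss of tubulin from microtubule ends. Most members of the mitotic group are transcribed mainly in G2 and mitosis, so their RNA level tends to follow how many cells divide. Their promoters often carry a cell cycle genes homology region, which the MuvB complexes bind, downstream of CCAAT boxes, which NF-Y binds. KIF11 is the target of antimitotic compounds that leave dividing cells with a single spindle pole.

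The promoter windows of the members at the 2 ends of the knockdown ranking are shown as a description. A link between these elements and the knockdown ratios was not tested. Each window runs from 250 bases before to 50 bases after the start of the gene, in RefSeq on GRCh38.p14, in the direction of transcription. Capitals mark TTTGAA, the core of the homology region, and CCAAT, each on either strand, so that a match on the other strand reads TTCAAA or ATTGG. KIF20A and KIF15 had the lowest ratios averaged over the lines, and KIF20B and KIF4A the ratios closest to 1. All 4 windows lie on the plus strand.
KIF20A chr5:138178862-138179161: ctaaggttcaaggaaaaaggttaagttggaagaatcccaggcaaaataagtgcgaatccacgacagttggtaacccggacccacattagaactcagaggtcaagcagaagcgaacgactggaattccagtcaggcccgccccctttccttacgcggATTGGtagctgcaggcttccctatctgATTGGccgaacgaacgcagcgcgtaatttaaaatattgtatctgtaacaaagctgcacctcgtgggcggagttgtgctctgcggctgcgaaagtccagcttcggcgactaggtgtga
KIF15 chr3:44761544-44761843: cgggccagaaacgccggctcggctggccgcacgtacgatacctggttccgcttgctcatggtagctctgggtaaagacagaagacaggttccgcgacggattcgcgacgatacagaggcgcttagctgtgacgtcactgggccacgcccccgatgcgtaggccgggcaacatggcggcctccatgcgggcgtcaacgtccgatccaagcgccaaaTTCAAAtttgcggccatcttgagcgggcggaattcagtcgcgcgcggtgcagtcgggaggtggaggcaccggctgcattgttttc
KIF20B chr10:89701340-89701639: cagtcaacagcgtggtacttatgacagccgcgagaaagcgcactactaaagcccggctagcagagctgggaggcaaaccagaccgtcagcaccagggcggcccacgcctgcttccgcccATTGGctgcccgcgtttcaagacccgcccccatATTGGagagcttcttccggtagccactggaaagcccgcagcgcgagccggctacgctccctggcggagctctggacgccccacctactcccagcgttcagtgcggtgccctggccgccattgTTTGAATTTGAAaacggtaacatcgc
KIF4A chrX:70289854-70290153: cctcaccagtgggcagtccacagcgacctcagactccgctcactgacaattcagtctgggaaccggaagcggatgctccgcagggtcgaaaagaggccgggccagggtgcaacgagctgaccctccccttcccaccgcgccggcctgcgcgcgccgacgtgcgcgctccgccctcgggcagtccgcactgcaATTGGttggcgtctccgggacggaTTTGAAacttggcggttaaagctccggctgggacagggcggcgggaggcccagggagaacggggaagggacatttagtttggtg
KIF20B holds a pair of TTTGAA in direct succession, from base 25 after the start. KIF4A has CCAAT on the other strand followed by TTTGAA from base -34, counted from the start. KIF15 has TTTGAA and no CCAAT, and KIF20A has a pair of CCAAT and no TTTGAA. In these 4 windows, picked by the ratio, KIF20A and KIF15 each lack 1 of the elements, and KIF20B and KIF4A hold both. This contrast does not hold over all members. KIF11, KIF18B and KIF14, next in the ranking, hold both, and KIF2C, which lacks both, ranks 7.

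Over the 10 members, TTTGAA was found in 8 windows, all but those of KIF20A and KIF2C, against 15.2% of 35116 RefSeq promoters of the same length. CCAAT was found in 8 windows, all but those of KIF15 and KIF2C, against 34.6% of the promoters, and both were found in 7, against 5.90%. Of 19 transport and other kinesins with a window, 1 held TTTGAA and 6 held CCAAT. Of 29 other G2/M genes, 21 held TTTGAA and 23 held CCAAT, shares near those of the members. The related palindrome TTTAAA, searched for only after the members' windows had been read, was found in 4 of them (KIF14, KIF20A, KIF23 and KIF2C), against 12.2% of promoters. Windows of the other G2/M genes held it in 8 of 29 cases, and those of the transport and other kinesins in 1 of 19. A match is a description of the letters in the window and shows no binding.

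**Figure D1:**
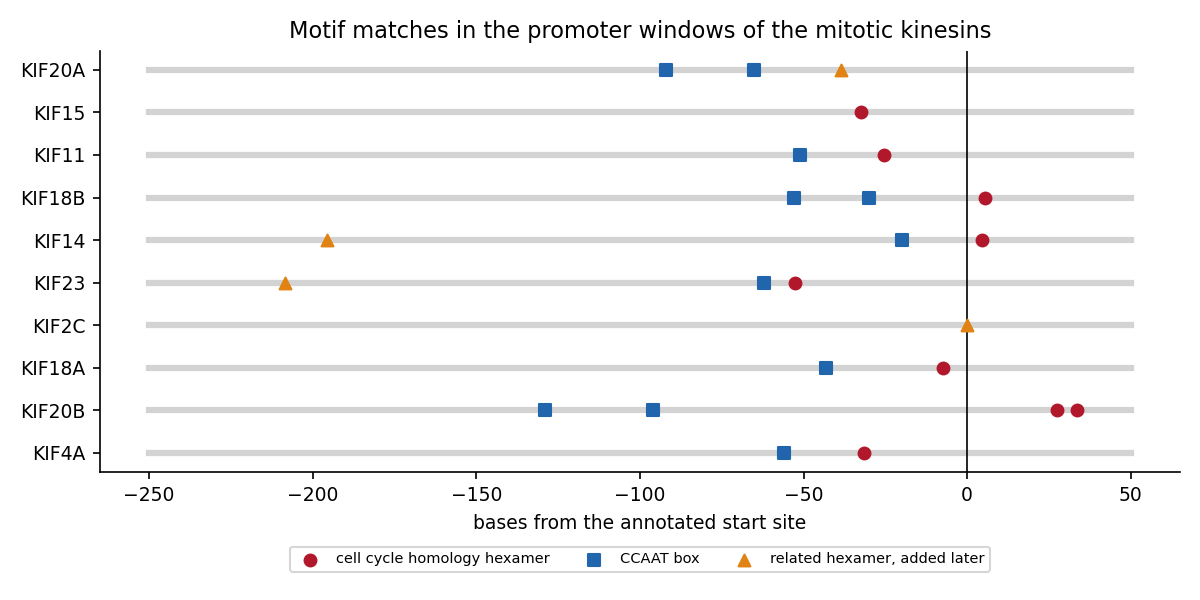
Positions of the motif matches in the promoter windows of the 10 members, in bases from the annotated start (horizontal axis), 1 gene per line ordered by the knockdown ratio. Circles are TTTGAA, squares CCAAT and triangles the palindrome TTTAAA, which was added later; circles appear in 8 of the 10 windows.

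Whether the motors that separate the spindle poles differed between the arms was read from KIF11 and KIF15. KIF11 is a tetramer that slides antiparallel microtubules apart and makes the spindle bipolar. It stood at 8.89 RPKM in U87MG KD against 29.8 RPKM in U87MG WT, and at 33.5 RPKM in U251 KD against 60.0 RPKM in U251 WT. The U87MG KD library was the low one, and U251 KD lay above U87MG WT. The KD level was 0.298 of the WT level in U87MG and 0.559 in U251. The 95% Clopper-Pearson limits were 0.279 to 0.318 for U87MG and 0.539 to 0.579 for U251, and all such limits given in parentheses take in counting error alone. Over both lines KIF11 fell, with a log2 ratio of -1.23 ± 0.22 (SE, limma on log2 of RPKM + 1, 2 libraries per arm, Benjamini-Hochberg adjusted p = 0.0295). KIF15, a motor that can hold the poles apart beside KIF11, stood at 3.45 RPKM in U87MG KD against 15.1 RPKM in U87MG WT, and at 10.5 RPKM in U251 KD against 16.9 RPKM in U251 WT. The U87MG and U251 controls were close to each other here, and U87MG KD lay far below the other 3 libraries. The ratio was 0.228 in U87MG (0.205 to 0.254) and 0.622 in U251 (0.581 to 0.666). KIF15 had the most negative log2 ratio of all members in U87MG, -1.86, against -0.64 in U251. The limma estimate of -1.25 ± 0.27 (SE) did not pass the threshold of 0.05 (adjusted p = 0.0513).

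Motors that act on microtubule ends and on chromosomes came next. KIF2C strips tubulin from microtubule ends and corrects faulty attachments at centromeres. It stood at 17.7 RPKM in U87MG KD against 54.8 RPKM in U87MG WT, and at 61.8 RPKM in U251 KD against 93.0 RPKM in U251 WT. It was the second most abundant member in every library, and U251 KD again lay above U87MG WT. The ratios were 0.323 (0.304 to 0.343) in U87MG and 0.664 (0.641 to 0.689) in U251, and limma gave -1.08 ± 0.24 (SE, adjusted p = 0.0532), which misses the threshold. KIF18A damps the growth of kinetochore microtubules and aligns chromosomes. Its level was 3.61 RPKM in U87MG KD against 11.7 RPKM in U87MG WT, and 10.7 RPKM in U251 KD against 16.9 RPKM in U251 WT. U251 KD lay slightly below U87MG WT, so the 2 KD libraries were the lowest. The ratio was 0.309 (0.2718 to 0.3498) in U87MG and 0.629 (0.580 to 0.682) in U251. KIF18A fell over both lines (-1.04 ± 0.22, SE, limma adjusted p = 0.0480).

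KIF18B, its relative on astral microtubules, was the least abundant member in all 4 libraries. It stood at 1.21 RPKM in U87MG KD against 5.90 RPKM in U87MG WT, and at 7.82 RPKM in U251 KD against 12.9 RPKM in U251 WT. The U87MG KD value rests on 135 reads. By RPKM this was the lowest ratio of any member in U87MG, 0.205 (0.169 to 0.247), while on the log2 scale with 1 added, which understates low genes, it stood at -1.64, behind KIF15 and KIF20A. In U251 the ratio was 0.607 (0.559 to 0.660). KIF18B fell over both lines (-1.15 ± 0.24, SE, limma adjusted p = 0.0471).

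KIF4A, a chromosome-bound motor that works with PRC1 to set the length of the midzone, had the ratio closest to 1 of the 10 in both lines. It stood at 14.0 RPKM in U87MG KD against 31.6 RPKM in U87MG WT, and at 46.8 RPKM in U251 KD against 58.6 RPKM in U251 WT. Both U251 libraries lay above both U87MG libraries. The ratio was 0.444 (0.418 to 0.470) in U87MG and 0.799 (0.771 to 0.828) in U251, and limma gave -0.72 ± 0.22 (SE, adjusted p = 0.114). This value carries a limit of its own, because KIF4B is a near-identical intronless copy on chromosome 5. The coding sequences of KIF4A (3699 bases) and KIF4B (3705 bases) differ at 152 aligned bases, an identity of 95.9%. A share of 0.279 of the 31-base words of the KIF4A transcript also occurs in KIF4B. The first 120 coding bases, from GENCODE 29 transcripts, show how close the copies are, with the 4 differing bases in capitals.
KIF4A: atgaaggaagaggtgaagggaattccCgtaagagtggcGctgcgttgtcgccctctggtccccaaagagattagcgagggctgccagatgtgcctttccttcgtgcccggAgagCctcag
KIF4B: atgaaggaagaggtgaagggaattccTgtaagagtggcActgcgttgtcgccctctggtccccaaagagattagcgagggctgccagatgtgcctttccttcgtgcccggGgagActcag
KIF4B stood at 4.39 RPKM in U87MG KD against 9.61 RPKM in U87MG WT, and at 16.6 RPKM in U251 KD against 18.8 RPKM in U251 WT. It ran at 0.304 to 0.355 times the KIF4A level in all 4 libraries. How the authors divided reads between the copies is not stated in any source used here, which makes both values uncertain. Among the other 9 members, at most a share of 0.0855 of these words (KIF18B) occurs in another annotated gene.

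Motors of the midzone and of cytokinesis made up the last group. KIF23, the motor subunit of centralspindlin, bundles midzone microtubules and was the most abundant member in every library. It stood at 28.5 RPKM in U87MG KD against 85.7 RPKM in U87MG WT, and at 70.4 RPKM in U251 KD against 110.0 RPKM in U251 WT. U87MG KD was again the library that stood apart, and U251 KD lay below U87MG WT. The ratios were 0.332 (0.318 to 0.347) in U87MG and 0.640 (0.621 to 0.660) in U251, and KIF23 fell over both lines (-1.10 ± 0.23, SE, limma adjusted p = 0.0464). KIF20A carries the chromosomal passenger complex to the midzone. Its level was 4.60 RPKM in U87MG KD against 16.6 RPKM in U87MG WT, and 26.6 RPKM in U251 KD against 50.5 RPKM in U251 WT. Both U251 libraries lay above both U87MG libraries. The ratio in U251, 0.528 (0.502 to 0.554), was the lowest of any member in that line, and the U87MG ratio was 0.278 (0.249 to 0.310). KIF20A fell over both lines with the lowest adjusted p of the group (-1.27 ± 0.21, SE, limma adjusted p = 0.0254).

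KIF14 binds PRC1 and citron kinase in the midbody. It stood at 5.10 RPKM in U87MG KD against 15.2 RPKM in U87MG WT, and at 14.1 RPKM in U251 KD against 25.4 RPKM in U251 WT. U251 KD lay close to U87MG WT. KIF14 fell over both lines (-1.11 ± 0.20, SE, limma adjusted p = 0.0293), with ratios of 0.336 (0.312 to 0.361) in U87MG and 0.556 (0.531 to 0.583) in U251. KIF20B, a motor needed late in cytokinesis, stood at 13.6 RPKM in U87MG KD against 36.6 RPKM in U87MG WT, and at 35.4 RPKM in U251 KD against 46.3 RPKM in U251 WT. U251 KD and U87MG WT were nearly level. Its ratio was 0.371 (0.353 to 0.389) in U87MG and 0.765 (0.740 to 0.791) in U251, and limma gave -0.87 ± 0.24 (SE, adjusted p = 0.0941).

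**Figure D2:**
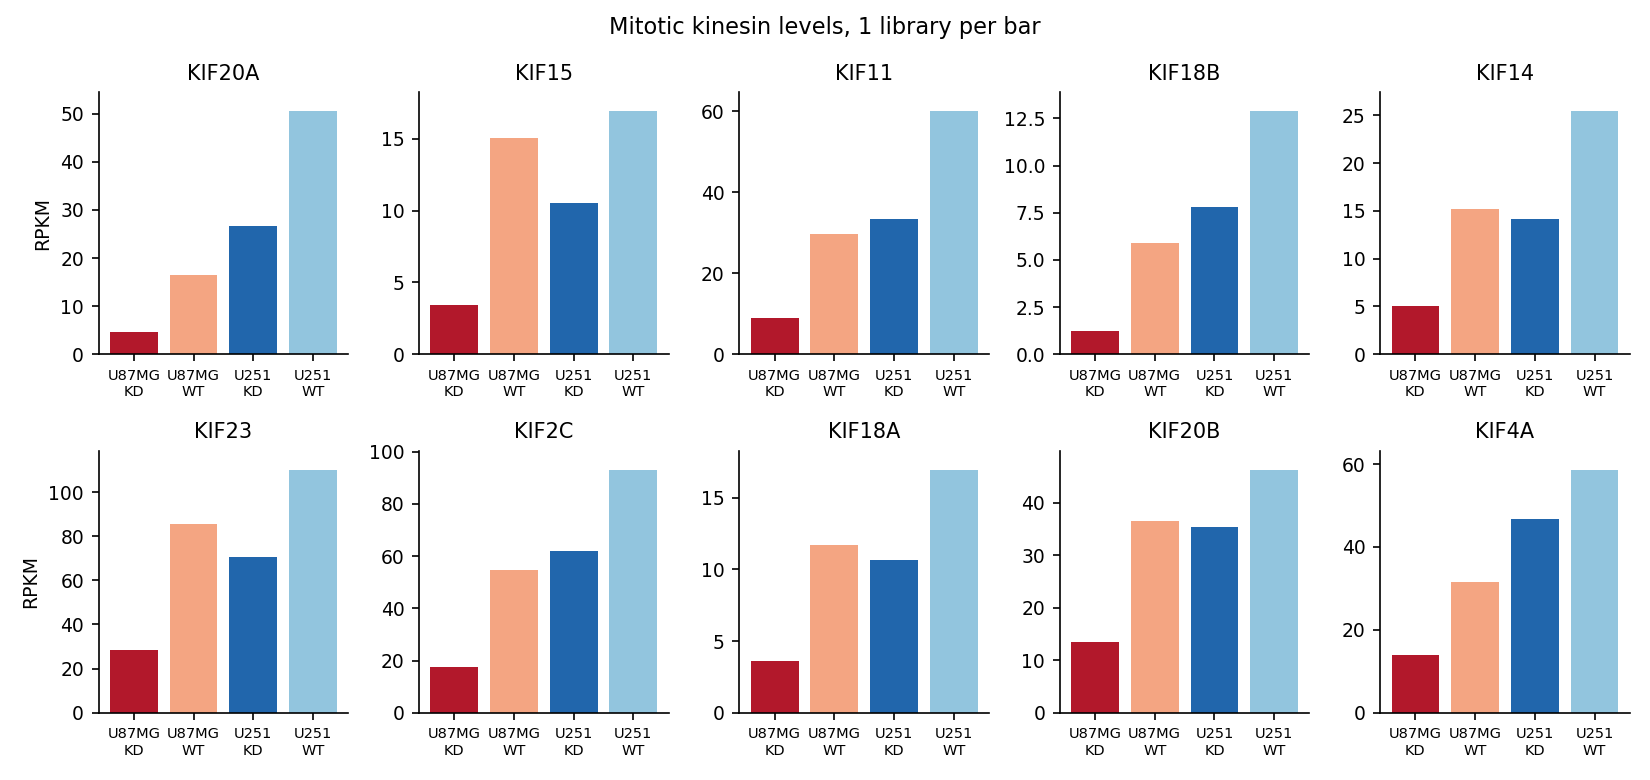
Level of each member in RPKM (vertical axes from 0, a scale of its own for each gene) in the U87MG KD, U87MG WT, U251 KD and U251 WT libraries, 1 library per bar and therefore no error bars. U87MG KD is the lowest and U251 WT the highest bar for all 10 genes.

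Counted as a group, all 10 members were at least 2-fold lower in U87MG KD than in U87MG WT on the log2 scale with 1 added, where 3.58% of the 16098 genes tested were. None of the 10 was at least 2-fold lower in U251 KD, where 1.71% of genes were. The members' median log2 ratio was -1.57 in U87MG and -0.64 in U251, against -0.05 and -0.0037 for all genes tested. Over both lines limma called 6 of 10 lower, where 2.61% of all genes were called lower. The members were chosen with earlier results of these data known, so their counts beside these shares are a description and no test. All 10 had an unadjusted p under 0.05. At that level 2066 of the 16098 genes tested were lower and 1334 higher. The fit leaves 1 residual degree of freedom per gene and the adjusted p-values mostly lie near the threshold, and the count moved with the settings: 10 with mRNA rows only, 2 after trimmed-mean rescaling, 1 without the intensity trend, and 0 without the filter on low values or without the cell line as a block. All 10 ratios stayed below 0 in each line under every alternative tried. Only rescaling by trimmed means or quantiles could have changed a sign, since the other settings cannot.

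**Figure D3:**
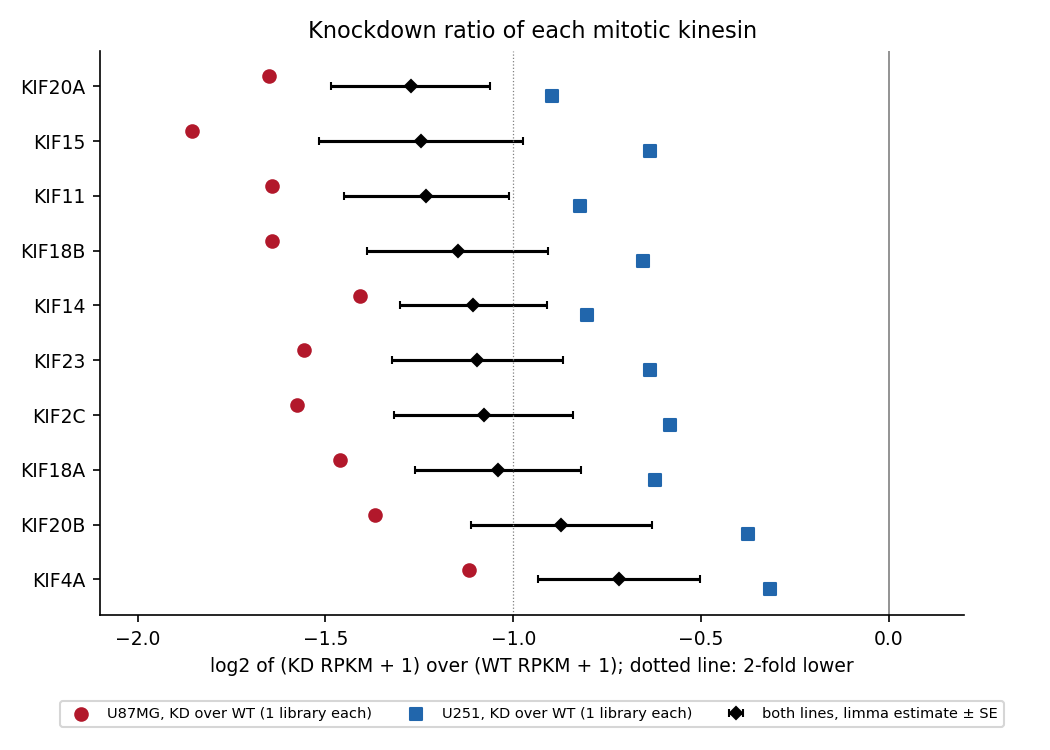
log2 ratio of KD over WT on RPKM + 1 (horizontal axis) for each member, with circles for U87MG and squares for U251 (1 library per arm) and diamonds with bars for the limma estimate over both lines ± SE. Every circle lies left of the dotted line at 2-fold and every square right of it; the lowest circle is KIF15 at -1.86 and the lowest square KIF20A at -0.90.

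Ranked by the RPKM ratio, the order in U87MG was KIF18B, KIF15, KIF20A, KIF11, KIF18A, KIF2C, KIF23, KIF14, KIF20B and KIF4A, lowest first. In U251 it was KIF20A, KIF14, KIF11, KIF18B, KIF15, KIF18A, KIF23, KIF2C, KIF20B and KIF4A. KIF20B and KIF4A closed both orders. The order has no replicate spread to be read against within a line. The counting intervals of 8 of 9 neighbouring pairs overlapped in each line, which is no test of their difference. The pairs whose intervals did not overlap were KIF20B and KIF4A in U87MG, and KIF2C and KIF20B in U251. Across the 10 genes the log2 ratios of the 2 lines, which share no library, had a Pearson r of 0.62 and a Spearman rho of 0.60, given as a description over genes that are not independent.

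For all 10 members the ratio lay further from 1 in U87MG than in U251. This was not particular to them. The median log2 ratio was -1.44 in U87MG and -0.78 in U251 for the other G2/M genes. It was -1.38 and -0.33 for the other mitotic kinesins. The share of all genes with the lower ratio in U87MG was not computed. The log2 ratio of the members was lower in U87MG by 0.61 (KIF14) to 1.22 (KIF15). This difference was not tested, since it leaves no residual degree of freedom.

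Levels also differed between the lines. All 10 members were called lower in U87MG than in U251 over both arms in the same limma fit, where 27.0% of genes were called lower in U87MG. This estimate averages the KD and WT arms, so the lower knockdown ratios in U87MG enter it and it is not a difference of the controls. The log2 difference of U87MG minus U251 was largest for KIF20A (-1.93 ± 0.21, SE, adjusted p = 0.000271) and smallest for KIF15 (-0.76 ± 0.27, SE, adjusted p = 0.0491). KIF18B (-1.50), KIF11 (-1.39), KIF4A (-1.27) and KIF2C (-1.25) followed KIF20A. These 4 and KIF20A are the 5 members whose U251 KD level was above their U87MG WT level. The line call held for 9 or 10 members under the other settings, except without the filter on low values, where 1 was called. In the controls alone, U87MG WT stood at 0.328 (KIF20A) to 0.893 (KIF15) times the U251 WT level. For KIF15 the U87MG KD level was 0.327 times the U251 KD level, so its line estimate came mostly from the KD arm. Differences between the controls have 1 library per line and were not tested. Between the controls the order of the members' levels was much alike, with a Spearman rho of 0.90 between U87MG WT and U251 WT over the 10 genes.

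Summed over the 10 members, kinesin RNA came to 100.6 RPKM in U87MG KD against 303.0 RPKM in U87MG WT, and to 317.8 RPKM in U251 KD against 490.5 RPKM in U251 WT. All other kinesin motor genes together came to 322.2 RPKM in U87MG KD against 408.8 RPKM in U87MG WT, and to 461.5 RPKM in U251 KD against 495.9 RPKM in U251 WT. The members thus made up 23.8% of kinesin RPKM in U87MG KD against 42.6% in U87MG WT, and 40.8% in U251 KD against 49.7% in U251 WT.

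The other motors with a role in mitosis were read beside the members. KIFC1, which slides microtubules toward the poles, fell (-1.08 ± 0.22, SE, limma adjusted p = 0.0433), at 7.60 RPKM in U87MG KD against 23.1 RPKM in U87MG WT and 27.6 RPKM in U251 KD against 44.7 RPKM in U251 WT. Of 5 other mitotic kinesins tested, limma called this 1, and 4 were lower at an unadjusted p under 0.05. CENPE, the kinetochore motor that brings chromosomes to the equator, had log2 ratios of -1.64 in U87MG and -0.60 in U251 (limma adjusted p = 0.0526). KIF22, a motor on chromosome arms, had -1.38 and -0.33 (adjusted p = 0.108), and KIF2A, a depolymerase at spindle poles that also works in neurons, -0.38 and -0.09. KIF2B was listed at 0 in all 4 libraries.

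Of 27 kinesins with roles in transport, cilia or unknown tasks, 19 were tested and limma called none, with 1 lower and 1 higher at an unadjusted p under 0.05. On the log2 scale with 1 added none of the 19 was at least 2-fold lower in either line. KIF24, at 1.24 RPKM in U87MG KD against 2.96 RPKM in U87MG WT, had an RPKM ratio of 0.418 (0.353 to 0.494). In U251, where no member was 2-fold lower either, KIF3C (-0.70), KIFC2 (-0.66) and KIF24 (-0.60) lay within the range of the members. The median log2 ratio of the 19 was -0.13 in U87MG and -0.08 in U251. KIF5B, the ubiquitous cargo motor and the most abundant kinesin of the table, stood at 95.7 RPKM in U87MG KD against 115 RPKM in U87MG WT, and at 148 RPKM in both U251 libraries. KIF1C, a vesicle motor, had log2 ratios of -0.02 in U87MG and -0.0041 in U251. KIF24, a centriolar motor, had the lowest mean of both lines in this list, with -0.82 in U87MG and -0.60 in U251 (limma adjusted p = 0.0672). KIF7, which acts in Hedgehog signalling at the cilium, had the highest in U251, 0.64, beside 0.21 in U87MG. Of 4 kinesin light chains and adaptors tested, limma called none, with 2 lower at an unadjusted p under 0.05. These 4 are too few to read against the shares of all genes.

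**Figure D4:**
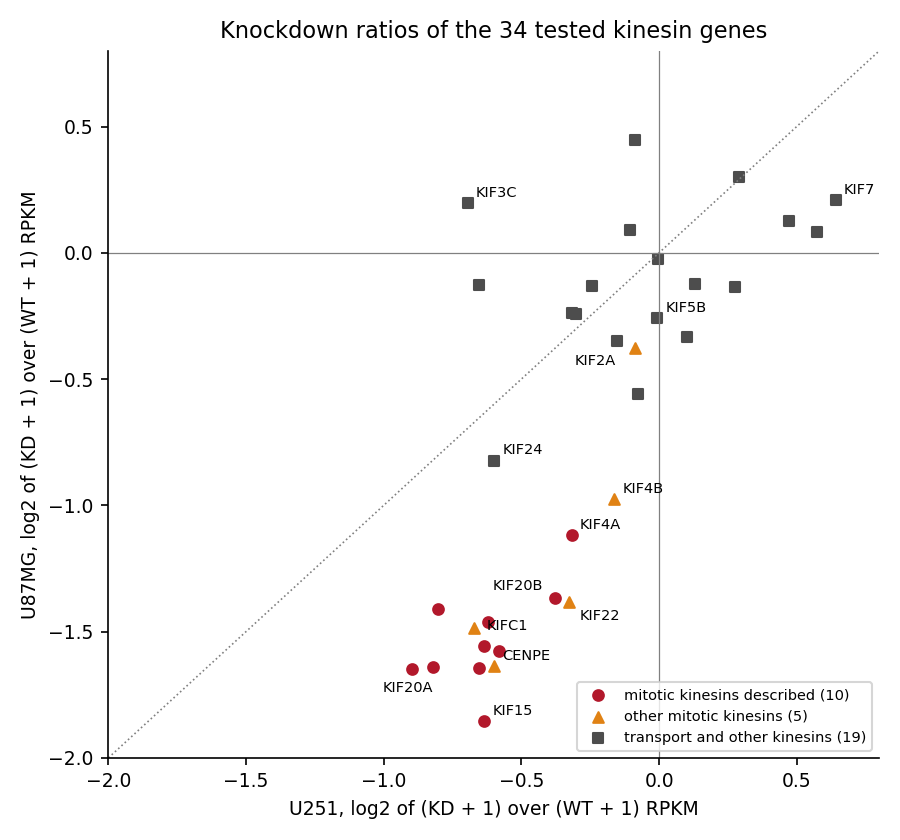
log2 ratio of KD over WT on RPKM + 1 in U87MG (vertical axis) against U251 (horizontal axis) for the 34 kinesin genes tested, 1 point per gene; the dotted line marks equal ratios. The 10 members (circles) lie at -1.12 or lower in U87MG and at -0.32 or lower in U251. The transport and other kinesins (squares) lie between -0.82 and 0.44 in U87MG, and between -0.70 and 0.64 in U251, where they overlap the members.

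Partners of the mitotic kinesins were read beside them, from lists drawn up with earlier results of these data known, in which PLK1, ASPM and some others stand more than once. Of 10 midzone and cytokinesis partners, limma called 5 lower, where 2.61% of all genes were. The list median was -1.39 in U87MG and -0.64 in U251. PRC1, the bundler that KIF4A and KIF14 bind, stood at 30.5 RPKM in U87MG KD against 128 RPKM in U87MG WT, and at 52.6 RPKM in U251 KD against 126 RPKM in U251 WT. Its fall was estimated as larger than that of any member, a difference that was not tested (-1.64 ± 0.21, SE, limma adjusted p = 0.0154). CDCA8, of the passenger complex that KIF20A carries, fell as well (-1.30, adjusted p = 0.0296). CIT, the kinase that binds KIF14, had a log2 ratio of -1.80 in U87MG and of -0.52 in U251 and was not called (adjusted p = 0.0677).

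Of 13 spindle assembly and plus-end partners, 5 were called lower, where 2.61% of all genes were. The medians were -1.18 in U87MG and -0.39 in U251. ASPM, a spindle pole protein, fell by 1.50 on the log2 scale (limma adjusted p = 0.0190), while TPX2, an activator of Aurora A, had -1.61 in U87MG and -0.51 in U251 (adjusted p = 0.0634). Of 12 mitotic kinases and cyclins, 6 were called lower, with medians of -1.33 and -0.59. PLK1 (-1.37, adjusted p = 0.0294), CDK1 (-1.19, adjusted p = 0.0211) and AURKA (-1.15, adjusted p = 0.0240) were among them in the limma fit. No gene of these 3 lists was called higher by limma, and 0 were higher at an unadjusted p under 0.05.

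Of 14 regulators of G2/M promoters, 4 were called lower, where 2.61% of all genes were. TFDP1, the partner of E2F factors, stood at 13.9 RPKM in U87MG KD against 51.0 RPKM in U87MG WT, and at 14.8 RPKM in U251 KD against 50.4 RPKM in U251 WT, so its ratio was alike in the lines (-1.81 and -1.70, limma adjusted p = 0.00723). The activators MYBL2 (-1.25, adjusted p = 0.0282) and FOXM1 (-1.20, adjusted p = 0.0288) fell, as did the repressor RBL1 (-1.57, adjusted p = 0.0140). The list's medians, -0.33 in U87MG and -0.20 in U251, were closer to 0 than those of the members.

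**Figure D5:**
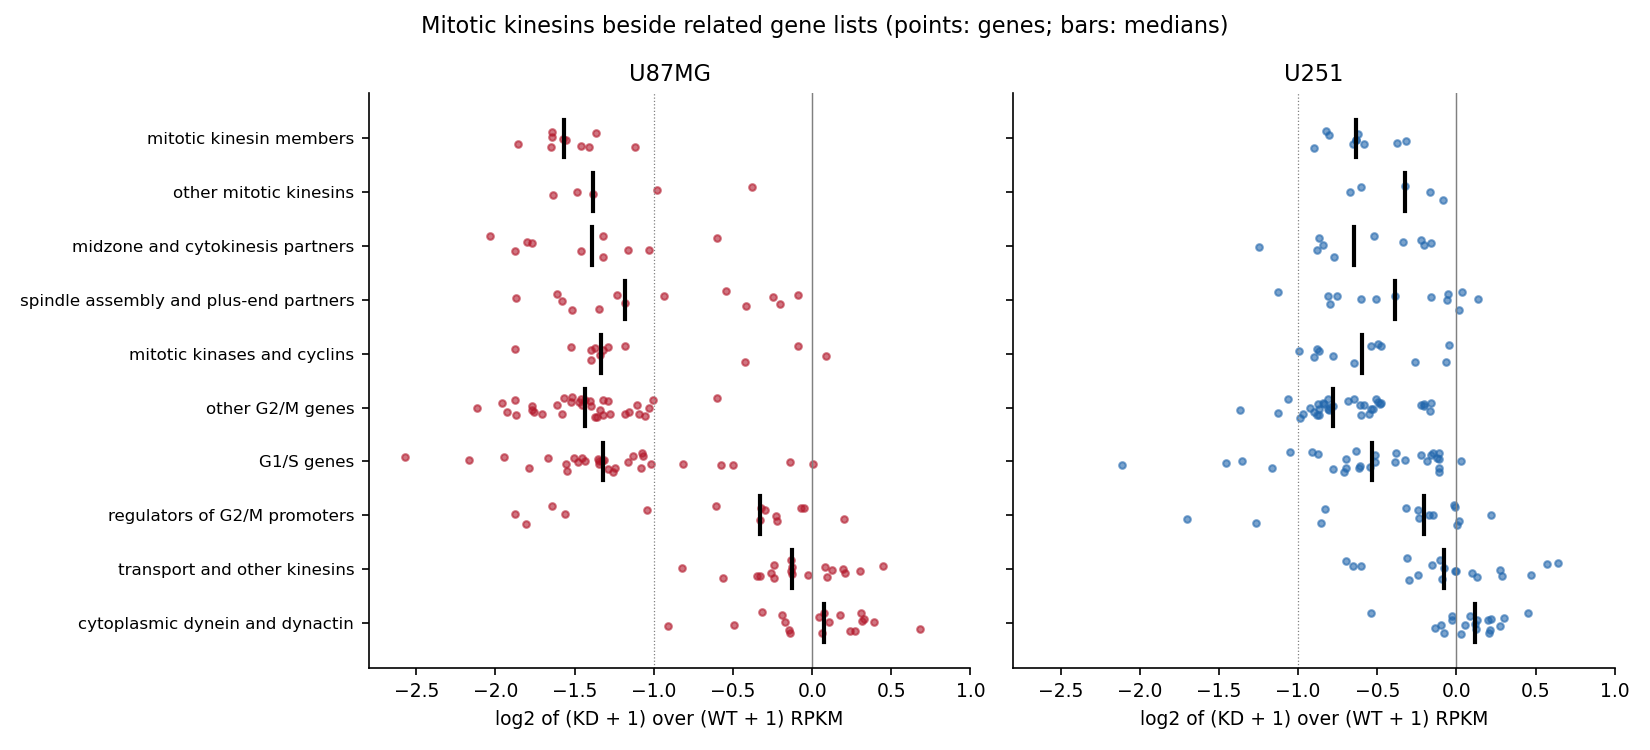
log2 ratio of KD over WT on RPKM + 1 (horizontal axes) in U87MG and in U251, with 1 point per gene tested and bars at the list medians; the dotted line marks 2-fold. The members have medians of -1.57 in U87MG and -0.64 in U251, beside -1.44 and -0.78 for the other G2/M genes and -0.13 and -0.08 for the transport and other kinesins.

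Other genes of the same cell cycle phase had values close to those of the members. MKI67, a marker of dividing cells, stood at 20.2 RPKM in U87MG KD against 91.1 RPKM in U87MG WT, and at 47.6 RPKM in U251 KD against 124 RPKM in U251 WT. Of 35 other G2/M genes, limma called 23 lower, where 2.61% of all genes were. The members' median log2 ratio minus theirs was -0.13 in U87MG and 0.14 in U251, so the members lay slightly below them in U87MG and slightly above in U251. The part of these genes' levels in the kinesin values was not tested. In these bulk libraries fewer dividing cells and less kinesin RNA per cell cannot be told apart.

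The genes most like the members were sought by the root-mean-square difference of centred log2 values over the 4 libraries, among 7656 other mRNA genes with a mean of at least 5 RPKM. The nearest was ERCC6L, a helicase of mitotic chromatin bridges, at 0.041 log2 units, with 3.52 RPKM in U87MG KD against 11.6 RPKM in U87MG WT and 12.1 RPKM in U251 KD against 18.9 RPKM in U251 WT. SPAG5, a spindle protein, followed at 0.072, then NUSAP1, a spindle protein, at 0.081, and KIFC1 at 0.083. SMCHD1 (0.093), VCAN (0.095) and SF3B3 (0.097) were also among the 8 nearest and are a chromatin protein, a matrix proteoglycan and a splicing factor subunit. Among the members, KIF2C lay nearest to their mean profile, at 0.048, and KIF20A furthest, at 0.393. With 4 libraries, 2 of them per line, such likeness rests on 3 free differences and is a description.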

How the data were processed

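Per the labels, poly(A) RNA was read paired-end from 1 library for each line and arm. The values are RPKM per gene, computed and deposited by the authors. The aligner was Bowtie 0.12.2 and the genome build hg19, per the submitters' processing notes. No source used here names the counting program, the annotation, the strand setting or the handling of ambiguous reads, so antisense and overlapping genes cannot be separated.

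Whole reads were recovered from the RPKM steps (within 0.01 reads) for all 175 listed genes above 0. They gave Clopper-Pearson 95% intervals of counting error alone. Reads without molecular identifiers are not independent molecules, and whether mates or fragments were counted is not stated, so these intervals may be too narrow. In a gene of 1 kilobase, 1 read was worth 0.0358 to 0.0398 RPKM. Ratios were taken on log2 of RPKM + 1. A gene entered when 1 or more libraries reached 1 RPKM, which left 16098 genes, and all 10 members passed. The model, in limma 3.58.1 (R 4.3.3), had terms for arm and cell line, an intensity trend, two-sided tests and Benjamini-Hochberg adjustment over all 16098 genes. These 4 libraries differ in cell line or hairpin, and repeat infections of the same line and arm are not stated. The 1 residual degree of freedom per gene is the difference of the knockdown ratio between U87MG and U251. It is joined by a prior of 6.74 degrees of freedom drawn from all genes tested. The p-values thus rest on how far the lines differ in their ratios, and not on replicates within a line. Technical variation and variation between infections are part of that difference and cannot be separated from it.

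The members and lists were chosen with earlier results of these data known. All 10 members were named, and in each list up to 4 genes with the largest mean ratio, kinesins with at least 5 RPKM, and the 8 genes nearest to the members, of which 1 is not reported here. KIF2B and KIF26B fall outside these rules. KIF26B is given because its direction was opposite in the 2 lines, and KIF2B was singled out with its values in view. Promoters are RefSeq on GRCh38.p14 and transcripts GENCODE 29. No coordinates were converted from hg19. Alternatives changed the pseudocount, filter, scaling, features, variance model and block. Python 3.11.15 with pandas 2.3.3 and scipy 1.17.1 was used.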

Additional observations from a re-analysis of the deposited data

Results flagged for a closer look

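Among 38 tested genes of kinesins and kinesin subunits, the 10 members included, 8 had opposite directions in the 2 lines. None of these 8 is a member, which follows from all 10 members being lower in both lines. The share of all genes with opposite directions was not computed. Of the 16098 genes tested, 55.5% were below 0 in U87MG and 50.5% in U251. The difference between the lines was not tested for any of the 8, since it leaves no residual degree of freedom. Their values are log2 ratios of KD over WT on RPKM + 1. KIF3C, a subunit of a neuronal transport motor, showed the widest split, 0.197 in U87MG against -0.696 in U251. KIF26B had 0.445 in U87MG and -0.0888 in U251, at 1.76 RPKM or less in all 4 libraries. KLC2, a light chain of the cargo motor, had -0.101 in U87MG and 0.355 in U251, and KLC4, another light chain, 0.124 and -0.0771. KIF21A, a regulator of microtubule growth in axons, had -0.332 in U87MG and 0.0998 in U251. KIF13A, an endosome motor, had -0.136 and 0.276, and KIF3A, a motor of cilia, -0.125 and 0.129. KIF16B, another endosome motor, had 0.0909 in U87MG and -0.106 in U251.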

How the results depend on the processing

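All 390 recomputed values of the members, over both lines, within a line or between the lines, stayed below 0. Most of them could not have changed sign. Changes of filter, features, trend or block leave each ratio as it was, and a pseudocount keeps its sign. Leaving out a library only repeats the value of the other line or arm. Only the trimmed-mean and quantile scalings could have shifted a direction. The counts of calls moved, and the cause was not tested. Over all genes limma called 420 lower and 186 higher. Without the filter on low values it called 0 and 0 (1890 and 1234 at an unadjusted p under 0.05), and without the cell line block 0 and 0 (183 and 79). After trimmed-mean rescaling the calls were 197 lower and 136 higher, with mRNA rows only 772 and 364, and without the intensity trend 172 and 88. Genes called higher were 301 with an RPKM of at least 5 in 1 library and 315 after quantile normalization. The members called lower, 6 in all, became 0 without the filter, 0 without the block, 2 after trimmed-mean rescaling, 1 without the trend and 10 with mRNA rows only. Members called lower in U87MG than in U251 became 1 without the filter. Genes at least 2-fold lower, 577 in U87MG and 275 in U251, became 1101 and 719 with a pseudocount of 0.1. In U251 they became 437 with a pseudocount of 0.5, 182 with an RPKM of at least 5 and 181 with mRNA rows only. Leaving out 1 library leaves no residual degree of freedom, so the members then have only the ratio of the other line and no test. With 135 reads in U87MG KD, KIF18B is the member whose ratio is most limited by depth.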

Other observations

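Genes of S phase entry and DNA replication, which peak before the kinesins do in the cycle, were called in part. Of 30 G1/S genes, limma called 13 lower, where 2.61% of all genes were, and none higher (25 lower and 0 higher at an unadjusted p under 0.05), and their median was -1.32 in U87MG and -0.53 in U251. RRM2, a subunit of ribonucleotide reductase, stood at 18.2 RPKM in U87MG KD against 113 RPKM in U87MG WT, and at 66.2 RPKM in U251 KD against 171 RPKM in U251 WT (adjusted p = 0.0183 by limma). CCNE2, a cyclin of S phase entry, had log2 ratios of -1.79 in U87MG and -2.11 in U251 (adjusted p = 0.00618 by limma), the stronger one in U251, whereas every member had its stronger ratio in U87MG.

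The minus-end motor cytoplasmic dynein and its cofactor dynactin differed from the mitotic kinesins in their values. Of 19 genes tested, limma called none (1 lower and 2 higher at an unadjusted p under 0.05), and the list median was 0.08 in U87MG and 0.12 in U251. The lowest was NDE1, a dynein regulator at kinetochores, at 5.14 RPKM in U87MG KD against 10.5 RPKM in U87MG WT and 5.50 RPKM in U251 KD against 8.45 RPKM in U251 WT (adjusted p = 0.0661 by limma).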
